A study of Mus musculus with 10 samples.

Results

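Genes of mitosis and of the G2/M transition were followed in CD4+CD25+ T cells, among which regulatory T cells are found, from mice that lack SHP-1 and from their controls. Probe sets were taken where the array annotation names 1 of 32 chosen genes alone, and the brightest probe set, by its mean on the 10 arrays, stood for each gene. This found 31 of the 32 genes, of 18193 genes measured in all. Ccnb1, which encodes cyclin B1, was not analysed here. SHP-1 is the tyrosine phosphatase encoded by Ptpn6. The groups were me, BALB/c mice homozygous for the SHP-1 knockout with the motheaten phenotype (3 arrays), he, mice heterozygous for it (3 arrays), and WT, wild type mice (4 arrays). All mice were 17 to 19 days old. The cells came from pooled lymph nodes, were isolated with a magnetic bead kit and were neither treated nor cultured, so an array holds all cells in the CD4+CD25+ fraction. The arrays are labelled biological replicates, and nothing more is stated about separate animals.

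A dividing cell makes most transcripts of mitosis late in its cycle and clears them afterwards, so these transcripts track the share of cells in G2 and mitosis. Cyclin-dependent kinase 1 with A and B cyclins starts mitosis. Polo-like and Aurora kinases build the spindle, kinetochore proteins attach chromosomes to it, and the anaphase-promoting complex ends mitosis by marking cyclins for destruction. In resting cells the DREAM complex holds these genes down through promoter elements, and in cycling cells B-MYB and FOXM1 turn them on. Regulatory T cells are known to divide more than other CD4+ T cells in the body. In RNA from a whole cell fraction, fewer dividing cells and less RNA in each dividing cell cannot be told apart.

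Values are log2(intensity + 32) after quantile normalisation between arrays. The intensity is the authors' value for a probe set, a group of short probes for 1 transcript. Such values compare arrays at 1 probe set, not genes with each other. The arrays fell into 2 sets by correlation, A (me 1, me 3, he 1, WT 1, WT 2) and B (me 2, he 2, he 3, WT 3, WT 4), with r of 0.970 to 0.996 within sets and 0.854 to 0.944 between them across probe sets. All 3 genotypes lay in both sets, in unequal numbers, and differences between genotypes are therefore from limma with array set as a block. The array me 3 lay between the sets at some probe sets. Ptpn6 was at 8.84 to 9.08 in me, 9.30 to 9.54 in he and 9.55 to 9.83 in WT, so the genotypes did not overlap. Xist and Eif2s3y marked me 1, me 2, WT 2 and WT 4 as male and the other arrays as female. All 31 genes had a mean intensity over 100, a filter on low values that was tried.

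No mitosis gene passed between me and WT. Of the 31 genes, 0 had an adjusted p below 0.05 in limma, where 3 probe sets of 45037 did (0.00666%), and the members' adjusted p was 0.989 to 0.998. At an unadjusted p below 0.05 there were 0 members, against 4.31% of all probe sets. The me minus WT difference was above 0 for 24 of 31 genes, with a median of 0.07 on the log2 scale, beside 49.3% of all genes and a median of -0.001. That balance followed the scaling of the arrays: 13 of 31 were above 0 without normalisation between arrays, with a median of -0.02, and 11 of 31 with centring on the array median, with a median of -0.04. Single arrays moved it too: 12 of 31 were above 0 without WT 3 (median -0.03) and 29 of 31 without WT 4 (median 0.16). At no member did the me arrays lie wholly above or wholly below the WT arrays, where 0.802% of probe sets were wholly higher and 0.835% wholly lower in me. For 14 members all arrays of set B lay below all arrays of set A, and for 3 above. Each genotype has arrays in both sets, so at those members an overlap of genotypes was fixed in advance.

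The proliferation marker Mki67, whose Ki-67 protein coats mitotic chromosomes, had log2 values of 12.52, 12.46 and 12.58 in me, 12.39, 12.00 and 12.83 in he, and 12.45, 12.38, 12.07 and 12.59 in WT. After normalisation the me arrays lay close together and inside the range of WT. The intensities before it were 7658, 4244 and 5777 in me, and 8115, 6693, 3461 and 5546 in WT. The me minus WT difference was 0.14 ± 0.19 (SE), with a 95% interval of -0.29 to 0.56, and it was -0.12 without normalisation between arrays and -0.14 with centring on the array median. Top2a, the topoisomerase that untangles chromosomes, was at 11.89, 11.34 and 11.99 in me, 11.70, 11.04 and 11.85 in he, and 11.72, 11.53, 11.16 and 11.78 in WT. The highest and the second highest array were me 3 and me 1, and me 2 was below 3 of the 4 WT arrays.

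The kinase at the centre of mitotic entry and its partners overlapped between genotypes, which the array sets alone fixed for Ccnb2 and Cks2. Cdk1 was at 10.54, 10.32 and 10.85 in me, 10.36, 10.12 and 11.07 in he, and 10.40, 10.48, 10.05 and 10.91 in WT, with its 2 highest arrays in he and WT. Ccnb2, cyclin B2, was at 10.95, 10.25 and 10.91 in me, 10.84, 9.87 and 10.72 in he, and 10.79, 10.94, 9.94 and 10.65 in WT. In both genes the low arrays were he 2 and WT 3, not arrays of 1 genotype. For Ccna2 (cyclin A2), Cks2, a small subunit that binds cyclin-dependent kinases, and Cdc25c, the phosphatase that activates Cdk1, group means were 11.08 ± 0.45, 11.83 ± 0.36 and 8.43 ± 0.43 (SD) in me and 10.90 ± 0.41, 11.71 ± 0.35 and 8.32 ± 0.44 in WT (n = 3 and 4).

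Plk1, the polo-like kinase that drives spindle assembly and cytokinesis, was at 8.66, 8.23 and 8.91 in me, 8.58, 8.13 and 8.46 in he, and 8.73, 8.79, 8.13 and 8.49 in WT. Aurkb, the kinase of the chromosomal passenger complex, was at 9.45, 8.24 and 9.48 in me, 9.34, 8.11 and 8.82 in he, and 9.23, 9.33, 8.07 and 8.75 in WT. In both genes each genotype had high values in set A and low values in set B, so the groups had to overlap. Birc5, the survivin subunit of the same complex, was at 10.61, 9.58 and 10.50 in me, 10.51, 9.45 and 10.35 in he, and 10.58, 10.23, 9.48 and 10.05 in WT. Its lowest arrays were he 2, WT 3 and me 2, 1 of each genotype. Bub1, a checkpoint kinase at kinetochores, was at 9.72, 8.32 and 9.44 in me, 9.55, 8.44 and 8.92 in he, and 9.53, 9.56, 8.38 and 8.96 in WT, and Bub1b, which makes the checkpoint protein BubR1, was at 10.17, 9.54 and 10.48 in me, 9.96, 9.12 and 10.17 in he, and 10.03, 10.57, 9.36 and 9.99 in WT. Aurka, Ttk, Cdca8 (borealin), Cdc20 and Ube2c, activators and enzymes of the passenger, spindle and cyclin destruction machinery, had me minus WT differences with 95% intervals that lay between -0.55 and 0.59.

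Among centromere and kinetochore genes, Cenpa had the smallest unadjusted p of any member. Cenpa, the histone H3 variant that marks centromeres, was at 10.75, 10.21 and 10.83 in me, 10.65, 9.81 and 10.39 in he, and 10.54, 10.47, 9.77 and 10.22 in WT. The me minus WT difference was 0.26 ± 0.14 (SE, 95% interval -0.06 to 0.58, adjusted p = 0.989 in limma), with 0.29 within set A and 0.22 within set B. In set A both me arrays were above both WT arrays, and in set B the array me 2, at 10.21, lay between WT 3 at 9.77 and WT 4 at 10.22. The 2 other Cenpa probe sets gave -0.03 and 0.18. The 0.18 came from 1441864_x_at, with intensities of 107 to 134 on all arrays except me 2, at 200. Cenpe, a kinesin that moves chromosomes to the spindle equator, was at 9.67, 9.26 and 9.71 in me, 9.45, 8.83 and 9.32 in he, and 9.40, 9.70, 8.93 and 9.26 in WT, a difference of 0.15 ± 0.13 that did not pass (adjusted p = 0.989 in limma). Cenpf and the Ndc80 complex subunit Nuf2 had differences with intervals of -0.43 to 0.56 and -0.53 to 0.36.

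Kinesins and spindle proteins also overlapped between genotypes, which the array sets alone fixed for Kif2c, Kif11, Tpx2 and Hmmr. Kif2c, which takes apart microtubule ends at centromeres, had the lowest me minus WT difference, -0.14 ± 0.19 (95% interval -0.57 to 0.28), from values of 9.61, 8.59 and 9.65 in me, 9.58, 8.53 and 9.11 in he, and 9.61, 9.94, 8.42 and 9.12 in WT. Its sign was not stable: it was 0.01 with no block. Kif11, the motor that separates spindle poles, Kif20a and Kif23, motors of the midzone and cytokinesis, Prc1, which bundles midzone microtubules, and Nusap1 had intervals that lay between -0.56 and 0.70. Tpx2 and Hmmr, both spindle assembly factors, had the highest differences, 1.03 ± 0.66 and 0.63 ± 0.44, with wide intervals of -0.46 to 2.53 and -0.36 to 1.63. These rested on the array me 3, and without it they were 0.05 and -0.02.

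The transcription factor of the group, Foxm1, had the smallest unadjusted p in both comparisons that include he. Its log2 values were 8.11, 7.92 and 8.15 in me, 8.01, 7.64 and 7.68 in he, and 8.17, 8.08, 7.72 and 7.83 in WT. In each set he was below every me and every WT array of that set. The he minus WT difference was -0.13 ± 0.05 (SE, adjusted p = 1 in limma) and the me minus he difference was 0.18 ± 0.06 (SE, adjusted p = 0.999), so neither passed. Foxm1 lies on chromosome 6, as does Ptpn6, and the part of this position was not tested. The gene has 3 further probe sets. Their he minus WT differences were 0.06, -0.01 and -0.01, and their me minus he differences were 0.04, 0.04 and 0. In every alternative setting the sign of both differences at the probe set used was kept.

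**Figure D1:**
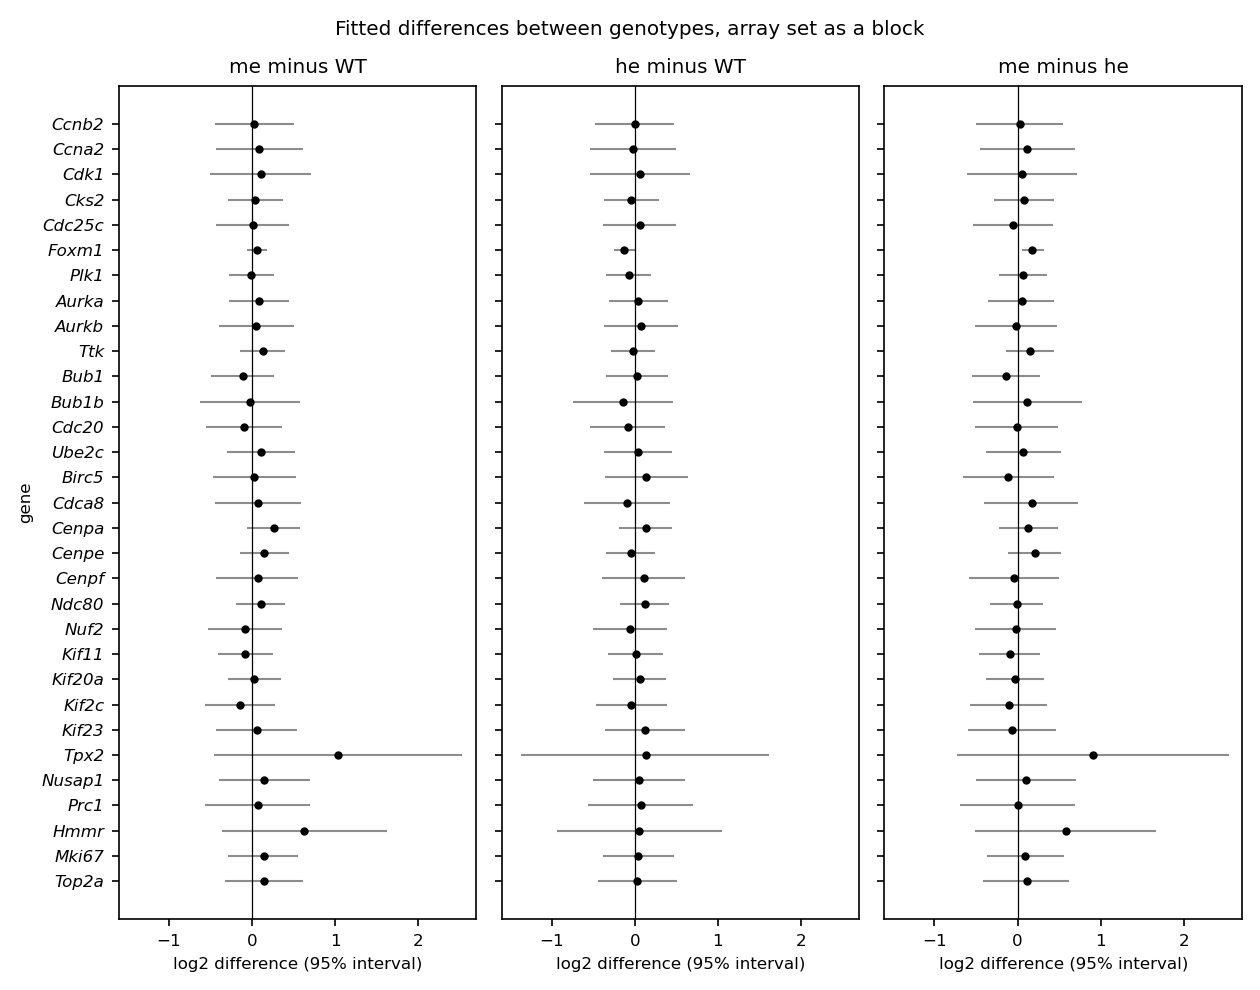
Fitted log2 differences (x axis) with 95% intervals for 31 mitosis and G2/M genes (y axis), for me minus WT, he minus WT and me minus he, in limma with array set as a block. Most points lie close to 0; Tpx2 and Hmmr have the widest intervals, and the interval of Foxm1 lies above 0 in me minus he.

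The loss of 1 allele gave no call either. Between he and WT 0 of 31 members had an adjusted p below 0.05 in limma (0% of all probe sets), and 1 member, Foxm1, had an unadjusted p below 0.05, against 2.13% of all probe sets. The difference was above 0 for 19 of 31 genes, with a median of 0.04, beside 47.5% of all genes and a median of -0.005. It was above 0 for 10 of 31 without normalisation between arrays (median -0.03), for 12 with centring on the array median (median -0.01) and for 10 with no block (median -0.06). It ran from -0.14 for Bub1b to 0.14 for Birc5. Besides Foxm1, the smallest p belonged to Ndc80, a kinetochore subunit that binds microtubules, with 0.12 ± 0.13, Cenpa with 0.13 ± 0.14 and Plk1 with -0.07 ± 0.12. Single arrays moved the balance as well. Without he 3 the difference was above 0 for 0 of 31 genes (median -0.18), and without he 2 for 29 of 31 (median 0.15). Without WT 3 it was above 0 for 6 genes (median -0.08), and without WT 4 or without he 1 for 28. The he arrays overlapped the WT arrays at every member, where 0.469% of probe sets were wholly higher and 0.573% wholly lower in he. For the members that the array sets split wholly, this overlap too was fixed in advance.

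Between me and he 0 of 31 members had an adjusted p below 0.05 in limma (0% of all probe sets). At an unadjusted p below 0.05 there was 1 member, Foxm1, against 3.21% of all probe sets. The median difference was 0.05, with 19 of 31 genes above 0, beside 0.004 and 51.8% over all genes, and with centring on the array median 13 were above 0 (median -0.03). It was lowest for Bub1, -0.14 ± 0.18, and Cenpe had 0.21 ± 0.14. Without he 3 the difference was above 0 for 30 of 31 genes (median 0.24), and without he 2 for 7 (median -0.10), without he 1 for 11 (median -0.05) and without me 3 for 12 (median -0.02). The me and he arrays overlapped at every member, where 1.61% of probe sets were wholly higher and 1.1% wholly lower in me. Again the overlap was fixed in advance for the members that the array sets split wholly. This comparison shares the me and he arrays with those against WT.

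Precision sets what these comparisons can show. In me minus WT the median SE was 0.20 over the 31 members, beside 0.08 over all genes. The 95% interval lay within -1 to 1 for 29 of 31 members in each of the 3 comparisons, with Tpx2 and Hmmr outside. It lay within -0.5 to 0.5 for 12 members in me minus WT, 15 in he minus WT and 9 in me minus he, beside 91.3%, 94.1% and 89.8% of all genes. A 2-fold change in either direction thus lay outside the interval for these 29 members.

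Within each array set the me minus WT differences did not run the same way. In set A the median was 0.16, with 26 of 31 members above 0, and in set B it was -0.09, with 7 of 31 above 0. After rounding, both sets gave a difference above 0 for 7 members and below 0 for 4, with Nuf2 at 0 in set A and -0.24 in set B. Set B has 1 me array, and against the 2 WT arrays there it gave opposite answers: the median was 0.18 for me 2 minus WT 3 and -0.33 for me 2 minus WT 4. In me 2 minus WT 3, 0 members were above 0.5 and 0 below -0.5, beside 0.968% and 0.309% of all probe sets. In me 2 minus WT 4, 0 members were above 0.5 and 7 below -0.5, down to -0.69, beside 1.13% and 0.648% of all probe sets.

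**Figure D2:**
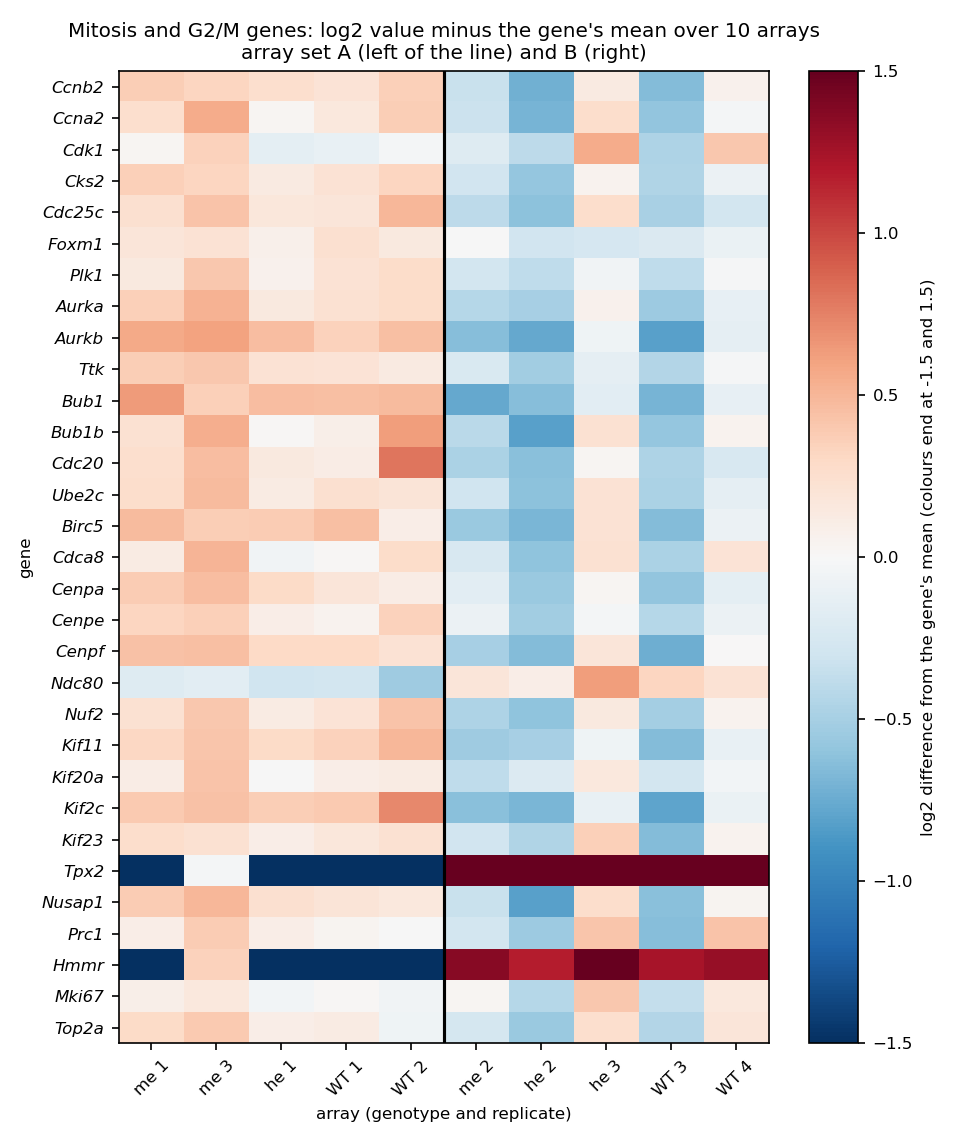
Heat map of 31 mitosis and G2/M genes (rows) in 10 arrays (columns, set A left and set B right of the line), as the log2 value minus the gene's mean over all arrays. Most genes are higher in set A; within set B the arrays he 3 and WT 4 are higher than he 2, WT 3 and me 2, while Tpx2, Hmmr and Ndc80 run the other way between the sets.

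Among pairs of arrays of the same genotype and array set, the median difference of the members was largest in set B, and there they moved together. In he 3 against he 2, both from females, all 31 members were higher in he 3, by 0.04 to 1.08, with a median of 0.71, beside 0.01 over all genes. In WT 4, a male, against WT 3, a female, 30 of 31 were higher in WT 4, with a median of 0.55, beside -0.01 over all genes. The difference was over 0.5 for 22 members in the he pair and 17 in the WT pair, beside 3.29% and 1.52% of all probe sets. Over 0.5 in both pairs were 15 members, beside 0.687% of all genes. Nusap1 (1.08), Bub1b (1.04) and Prc1 (0.96) differed most in the he pair, and Prc1 (1.05), Cdk1 (0.87) and Cenpf (0.74) in the WT pair. Foxm1 had the lowest mean intensity of the members, 216. It read 178 in he 2 and 187 in he 3, where the array medians were 175.8 and 179.6. At this level it differed by 0.04 in the he pair and 0.12 in the WT pair. These are single pairs of arrays, with no test.

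The pairs in set A showed no such gap. In me 3 against me 1 the median over the members was 0.10, and 2 members, Tpx2 and Hmmr, were over 0.5, against 2.86% of all probe sets. In WT 2 against WT 1 the median was 0.06, and 2 members, Cdc20 and Bub1b, were over 0.5, against 0.484%. Without normalisation between arrays these 2 medians were -0.23 and -0.19, so their direction followed the scaling. Those of the he and WT pairs in set B were 0.52 and 0.58, and with centring on the array median 0.49 and 0.57.

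**Figure D3:**
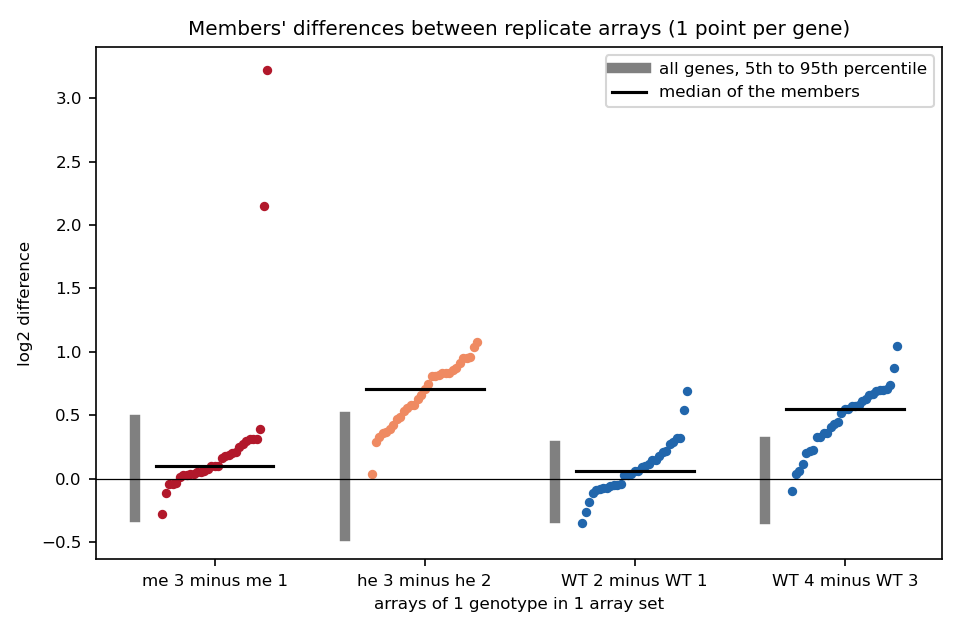
Log2 difference (y axis) between 2 arrays of the same genotype in the same array set (x axis), with 1 point for each of 31 mitosis and G2/M genes, their median as a line, and the 5th to 95th percentile of all genes as a grey bar. The members lie mostly above the grey bar in he 3 minus he 2 (median 0.71) and WT 4 minus WT 3 (median 0.55), and around 0 in the 2 pairs of set A.

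Promoters of 5 of these genes are shown as examples of 2 kinds of element that mitotic promoters are known for. All 5 hold both kinds, but windows with a match to either kind were to be shown first. The first is the cell cycle genes homology region (CHR), searched as TTTGAA or TTTAAA, through which the DREAM complex holds mitotic genes down in resting cells. The second is CCAAT, the site of the activator NF-Y. Sequences are RefSeq windows of GRCm38.p6, 5′ to 3′ on the gene's strand, from 150 bases before the annotated start to 20 bases after it, and capitals mark each match on either strand.
Mki67: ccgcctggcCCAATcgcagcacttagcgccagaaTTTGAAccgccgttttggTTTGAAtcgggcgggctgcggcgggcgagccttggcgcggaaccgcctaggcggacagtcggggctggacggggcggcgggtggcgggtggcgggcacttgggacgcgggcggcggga
Top2a: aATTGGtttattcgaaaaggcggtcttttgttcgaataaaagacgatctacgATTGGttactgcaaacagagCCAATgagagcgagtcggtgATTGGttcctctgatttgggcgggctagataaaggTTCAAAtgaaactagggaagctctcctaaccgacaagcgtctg
Cdk1: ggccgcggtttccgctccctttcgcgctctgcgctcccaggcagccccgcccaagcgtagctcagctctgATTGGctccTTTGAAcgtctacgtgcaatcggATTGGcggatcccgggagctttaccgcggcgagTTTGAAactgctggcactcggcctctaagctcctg
Ccnb2: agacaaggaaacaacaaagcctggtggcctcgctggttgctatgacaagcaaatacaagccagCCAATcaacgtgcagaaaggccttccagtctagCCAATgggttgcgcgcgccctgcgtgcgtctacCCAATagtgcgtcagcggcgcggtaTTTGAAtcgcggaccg
Plk1: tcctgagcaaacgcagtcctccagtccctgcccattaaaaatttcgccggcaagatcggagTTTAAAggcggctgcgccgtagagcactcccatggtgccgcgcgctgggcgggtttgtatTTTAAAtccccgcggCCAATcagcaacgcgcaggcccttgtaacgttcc

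The windows lie at chr7:135716360-135716529 (- strand) for Mki67, chr11:99024170-99024339 (- strand) for Top2a, chr10:69352893-69353062 (- strand) for Cdk1, chr9:70421535-70421704 (- strand) for Ccnb2 and chr7:122159285-122159454 (+ strand) for Plk1. Ccnb2 has 3 CCAAT matches, at -87, -54 and -21 from the start, followed by TTTGAA at 5. Cdk1 has TTTGAA at -71 and -15, with CCAAT on the other strand at -80 and -48. In Top2a the TTTGAA match at -23 lies on the other strand, behind 4 CCAAT matches. In Mki67 the TTTGAA matches are farther out, at -116 and -98, and Plk1 has TTTAAA at -89 and -29 with CCAAT at -14. Differences in he 3 against he 2 were 0.83 for Mki67, 0.81 for Top2a, 0.95 for Cdk1, 0.86 for Ccnb2 and 0.33 for Plk1.

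RefSeq windows from 250 bases before to 50 after the start were at hand for 26 of the 32 genes, Ccnb1 included. A CHR match stood in 22 of the 26 (84.6%), beside 30.6% of 27025 genes with a window, and CCAAT in 21 (80.8%), beside 41.1%. Both stood in 19 (73.1%), beside 12.2%. No CHR match stood in 4, Bub1, Cks2, Nuf2 and Nusap1, and the last 2 had no CCAAT either. All 31 measured members were higher in he 3 than in he 2, Nusap1 (1.08) and Nuf2 (0.75) among them. A link between these letters and that gap was not tested. TTTGAA alone stood in 19 members (73.1%), beside 20.2% of genes. Both strands were searched, and a CCAAT match can share its last base with the first of a CHR match. A match describes letters in a window and does not show that a factor binds there.

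Between the array sets most members were lower in B. The sets were found from the values of all probe sets, these included, so what follows is a description with no test. The median of set B minus set A was -0.54 over the members and -0.05 over all genes, with 28 of 31 lower, and it was -0.84 without normalisation and -1.08 with centring on the array median, again with 28 lower. Among the members lower in B, Aurkb (-0.97), Bub1 (-0.96) and Kif2c (-0.92) differed most, while Cdk1 (-0.03) and Mki67 (-0.07) were near 0. All arrays of B were below all arrays of A for 14 members, beside 30.4% of probe sets, and above them for 3, beside 21%. Those 3 were Tpx2, Hmmr and Ndc80.

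Tpx2 and Hmmr show that 1 probe set can stand apart from others of its gene. At the Tpx2 probe set used, 1447518_at, the arrays me 1, me 2 and me 3 had intensities of 204, 11199 and 2246, the he arrays 198, 11606 and 12298, and the WT arrays 201, 223, 11911 and 12280, each in the order of replicate number. The log2 value was 5.18 higher in set B, a shift over 3 that 69 probe sets had (0.153%), with me 3 between the sets. A second Tpx2 probe set, 1447519_x_at, shifted by 4.07, but 1428104_at and 1428105_at shifted by -0.80 and -0.63, like most members. At these last 2 the me minus WT differences were -0.08 and 0.02.

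The Hmmr probe set used, 1425815_a_at, was at 9.41, 12.58 and 11.56 in me, 9.42, 12.39 and 12.76 in he, and 9.59, 9.48, 12.45 and 12.52 in WT, a shift of 2.65. The 4 other Hmmr probe sets shifted by -0.57 to -0.20, and their me minus WT differences were -0.12 to -0.01. One Cdca8 probe set, 1428480_at, was 2.30 higher in set B against -0.35 and -0.49 at the other two, and one of Kif2c, 1449060_at, was 0.76 higher against -0.92 to -0.32 at the other three. Ndc80 has 1 probe set, at 9.01, 9.38 and 9.04 in me, 8.90, 9.30 and 9.83 in he, and 8.92, 8.66, 9.52 and 9.42 in WT. Aurka had -0.61 at the probe set used and 0.28 at its other one, and Cdc20 had -0.71, 0.21 and -0.17. Top2a, Cenpa and Foxm1 also had a probe set on either side of 0, at no more than 0.10 above it. The choice of probe set thus sets the direction of these genes between array sets, and it moved the median over the members between genotypes little, to 0.03 in me minus WT, 0.03 in he minus WT and 0.02 in me minus he when all probe sets of a gene were averaged.

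**Figure D4:**
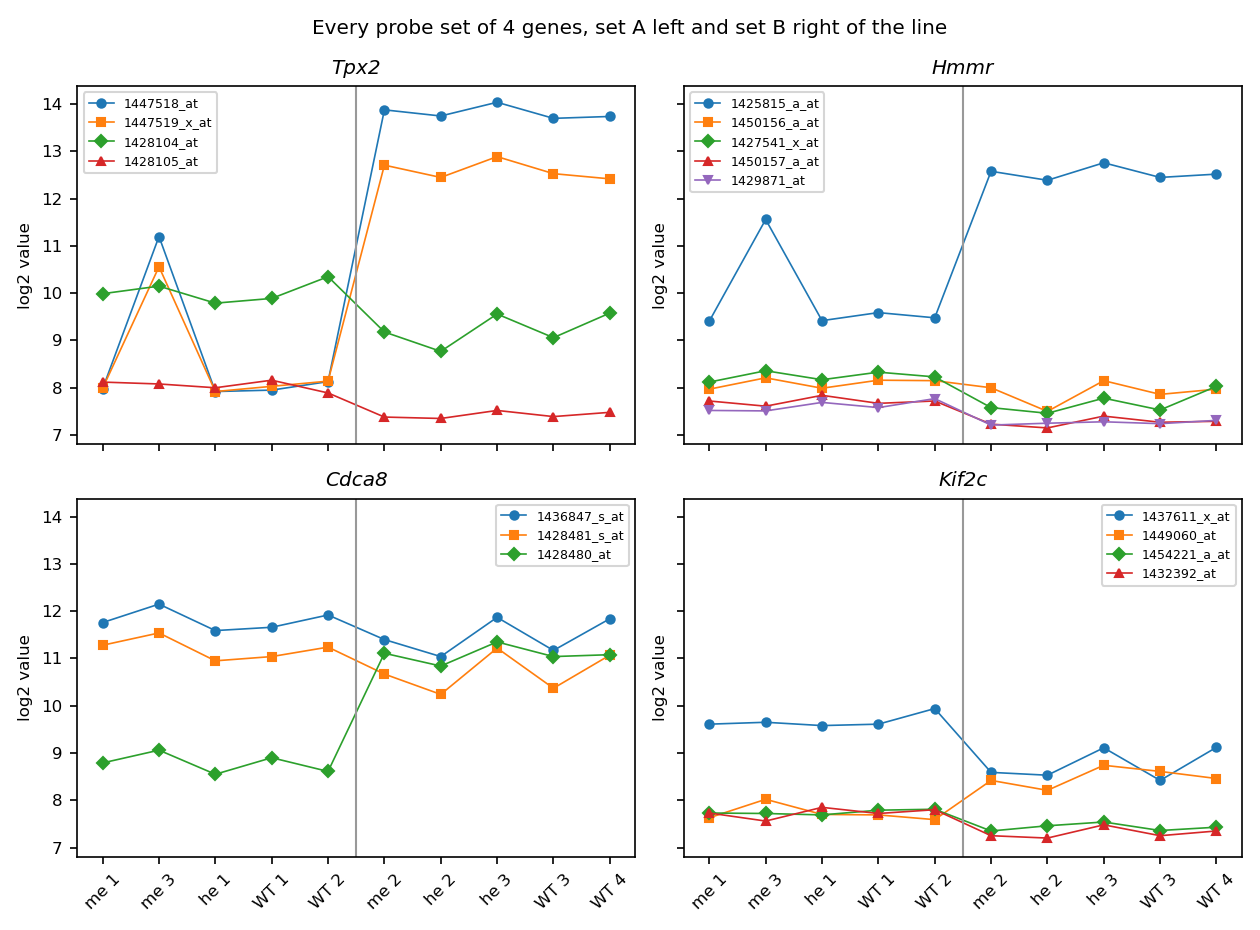
Log2 values (y axis) of every probe set of Tpx2, Hmmr, Cdca8 and Kif2c in 10 arrays (x axis, set A left and set B right of the line); lines join values of 1 probe set. For each gene 1 or 2 probe sets are higher in set B while the others are lower. The array me 3 lies between the sets by the widest margins at 2 Tpx2 probe sets and 1 Hmmr probe set. It does so by smaller margins at others, among them 1428480_at of Cdca8 and 1449060_at of Kif2c.

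Other genes of the cell cycle were described from lists. Of 73 further mitosis genes measured, 0 passed between me and WT in limma, 2 had an unadjusted p below 0.05, both higher, and the median was 0.03. These were Cdca3, a trigger of mitotic entry, with 0.59 ± 0.20 (SE, adjusted p = 0.989 in limma), and Ncapd2, a condensin subunit, with 0.43 ± 0.18 (adjusted p = 0.989). Cdca3 was at 10.87, 10.59 and 11.09 in me, 10.53, 10.04 and 10.79 in he, and 10.12, 10.67, 9.80 and 10.25 in WT. The array me 2 lay just below WT 2, which belongs to the other array set. Compared only with WT arrays of its own set, every me array was higher, by 0.59 on average for A and 0.57 for B. Set B has only me 2 for this, and he 3 of that set, at 10.79, was above it. In he minus WT, Cdca3 differed by 0.30 and Ncapd2 by 0.21. Whether the place of these genes in the genome relative to Ptpn6 plays a part was not tested. In he 3 against he 2 the list had a median of 0.53, with 68 of 73 higher, and in WT 4 against WT 3 of 0.30, with 63 higher.

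Genes of DNA replication and G1/S differed between the same replicate arrays as the members. Their median was 0.47 in he 3 against he 2 and 0.32 in WT 4 against WT 3, but -0.06 in me minus WT, where 0 of 29 passed and 2 had an unadjusted p below 0.05, both lower. Mcm4, a subunit of the replicative helicase, had the smallest p (-0.27 ± 0.06, SE, adjusted p = 0.690 in limma), with 11.73, 11.29 and 11.61 in me and 11.98, 11.88, 11.51 and 11.61 in WT.

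Subunits of the anaphase-promoting complex and brakes on the cycle had medians near 0 in both views. The medians in me minus WT were -0.02 over 16 and -0.02 over 25 genes, with 0 passing in each and 1 and 0 with an unadjusted p below 0.05. In the he pair of set B they were 0.02 and 0.00, and in the WT pair 0.03 and 0.08.

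Other measures of the arrays moved with genotype, and their part in the me comparisons was not tested beyond the fits given here. The Gapdh control gave a 3′ over 5′ intensity ratio of 9.92 to 13.83 in me, 7.88 to 9.71 in he and 7.84 to 9.53 in WT. The cre hybridisation control read 21736 and 13192 in the me arrays of set A, against 26243 in he 1 and 27388 and 27127 in WT 1 and WT 2. In set B it read 10770 in me 2, against 14241 and 13640 in he 2 and he 3 and 16150 and 14091 in WT 3 and WT 4. With the cre control as a covariate beside the block, the me minus WT difference was above 0 for only 4 of 31 members, with a median of -0.22, and 0 passed in limma.

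Markers of the cells present were checked beside the members. The Treg marker Foxp3 was at 10.68 to 11.58 in me, 10.74 to 11.45 in he and 10.60 to 11.41 in WT. Plasma cell markers summed to 6237 to 16591 in me, 4503 to 9659 in he and 4584 to 9699 in WT, in units of intensity, with 3 of 10 genes at an unadjusted p below 0.05 and none passing. Jchain, the joining chain of antibodies, was at 9.82, 7.96 and 10.14 in me, 7.04 to 7.21 in he and 7.03 to 7.11 in WT. Over 9 B cell genes the sum was 1478 to 2377 in me, 1404 to 2042 in he and 1343 to 2112 in WT. The me minus WT difference was above 0 for 8 of these 9, with 2 at an unadjusted p below 0.05, Ms4a1 (0.52 ± 0.10) and Cd22 (0.43 ± 0.15, SE). Of 7 germinal centre B cell genes 1, S1pr2, and of 9 CD8 and NK cell genes 1, Eomes (0.38 ± 0.08), had an unadjusted p below 0.05, both higher in me. Of 8 T cell genes there were 2, Cd5 higher and Cd247 lower, and none of these genes passed. Over 9 genes of immature thymocytes the sum was 1952 to 6462 in me, 2081 to 5737 in he and 1698 to 6195 in WT. Over 7 genes of erythroid precursors it was 887 to 1412 in me, 885 to 1316 in he and 899 to 1540 in WT. All such sums are of intensities before normalisation, and their ranges by genotype mix the 2 array sets. The thymocyte sums were 1698 to 2081 in set A and 4157 to 6462 in set B. The plasma cell sums were 8038 to 16591 in set A and 4503 to 6237 in set B. Of 10 myeloid precursor and neutrophil genes 3, and of 9 macrophage and monocyte genes 3, had an unadjusted p below 0.05, all higher in me, and none passed. The myeloid sums were 1366 to 2348 in me, 1368 to 1974 in he and 1334 to 1874 in WT, and the macrophage sums 1353 to 2260 in me, 1216 to 2029 in he and 1244 to 1882 in WT. No marker was at 0, since these intensities have no true zero, and the part of such cells in the values of the mitosis genes was not tested.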

How the data were processed

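RNA of 10 samples was amplified from 20 ng, and 10 ug of amplified RNA was labelled with biotin and hybridised to Affymetrix arrays, per the labels' protocols. The authors deposited a linear intensity for every probe set of each array. How they summarised probes and scaled arrays is not given in the sources used here. Of 45101 probe sets, 64 controls were left out. The array annotation named 1 gene for 34945. After adding 32, log2 values were taken and quantile normalised between arrays. Array sets came from average-linkage clustering of the correlation between arrays, cut at 2. Differences are from limma 3.58.1 (R 4.3.3) on all 10 arrays with genotype and array set as terms (6 residual degrees of freedom) and Benjamini-Hochberg adjustment over 45037 probe sets, threshold 0.05. Medians over the members have no test.

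The member genes, lists, block and tests were chosen with earlier results of these data known. The naming rule gives values in every array for 9 fixed genes (8 of them measured), the 4 members with the smallest p in each comparison, and the highest and lowest difference; up to 4 genes of each pathway list, by p for me against WT, may be named. Promoters could be shown for members with values in every array, those with a CHR or CCAAT match first. Nusap1 and Nuf2 beside the promoters, the marker genes and the genes in the closing section were named after their values were seen. Alternatives were no block, me 3 in set B, sex, a replicate block, 2 other scalings, pseudocounts of 1 and 128, a mean intensity of at least 100, a trended robust prior, 2 quality covariates, all probe sets of a gene, an adjusted p of 0.1 and leaving out each array. The procedure was tested on simulated data. Sex was called from Xist and Eif2s3y. The number of arrays limits precision, and p-values measure the spread between arrays.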

Additional observations from a re-analysis of the deposited data

How the results depend on the processing

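No member passed in any setting or comparison. Over all probe sets limma called 3 between me and WT. The count was 0 with no block, with me 3 counted in set B, with sex as a further block, with the Gapdh ratio, with the cre control, without normalisation and with centring on the array median, where 282, 1573, 2733, 1159, 2291, 1626 and 1862 probe sets had an unadjusted p below 0.05. It was 5 at an adjusted p of 0.1 and ran between 0 and 5 when 1 array was left out: 1 without WT 1 or WT 4, 2 without me 2, 3 without he 3, 5 without he 2 and 0 in the other 5 cases. For me against he it ran between 0 and 2, with 2 without me 2, and for he against WT it was 0 throughout. With 1 array left out, the median over the members ran between -0.03 (without WT 3) and 0.19 (without me 2) in me minus WT, between -0.18 and 0.15 in he minus WT, and between -0.10 and 0.24 in me minus he. With the cre control it was -0.22 in me minus WT and -0.25 in me minus he. Without Tpx2 and Hmmr, a choice made after seeing the data, the medians moved by less than the spread of the member mean between arrays of a group.

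With the replicate block the count for me against WT was 0 (2816 at an unadjusted p below 0.05), Plk1 was 0.05 and Bub1b 0.10 in he minus WT. With this block 29 of 31 members were above 0 in me minus WT (median 0.16, with 4 members at an unadjusted p below 0.05), 30 of 31 in he minus WT (median 0.17) and 15 of 31 in me minus he (median -0.02). The labels give no basis for pairing by number. Deviations from the means of genotype and array set correlated at 0.15 to 0.25 for number 1. For number 2 the correlation was 0.16 for me with WT, 0.01 for me with he and -0.16 for he with WT. For number 3 it was 0.22, 0.32 and -0.19 in the same order. These values were low and of both signs, and the numbers were not taken to pair the samples.

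Signs of differences that did not pass also turned, and the cause was not tested. In me minus WT, Tpx2 was -0.77 and Hmmr -0.31 with me 3 in set B, -0.43 and -0.42 with the Gapdh ratio, and -1.65 and -1.16 with the cre control. In me minus he they were -0.88 and -0.34 with no block and with me 3 in set B, -0.41 and -0.36 with the Gapdh ratio, and -1.34 and -0.92 with the cre control. Kif2c in me minus WT was 0.01 with no block, 0.14 with me 3 in set B and 0.07 with the Gapdh ratio. Mki67 was -0.12 without normalisation, -0.14 with centring and -0.08 with the cre control. Bub1 in me minus he was 0.19 with no block and with me 3 in set B. With 1 array left out, Hmmr ran between -0.02 and 1.05 in me minus WT and between -0.02 and 1.00 in me minus he, Tpx2 between -0.00063 and 1.58 in me minus he, and Bub1 between -0.24 and 0.02. In he minus WT, Ndc80 ran between -0.03 and 0.24, Cenpa between -0.02 and 0.27, Plk1 between -0.19 and 0.0046, Birc5 between -0.11 and 0.35, and Bub1b between -0.46 and 0.08.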

Other observations

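The 2 replicate pairs of set B share no array, and 125 of 18193 genes (0.687%) were over 0.5 on the log2 scale in both WT 4 minus WT 3 and he 3 minus he 2. Of these, 15 were members, 16 came from the list of further mitosis genes and 3 from the DNA replication list, and 91 were on no cell cycle list. The following were named after their values were seen, as single genes and not as signs of a cell type or state. Some of the 91 are known from DNA replication and cell division, among them Pclaf, Clspn, Dbf4, Cep55, Kpna2 and E2f8. Icos, a co-stimulatory receptor, differed by 0.63 in the he pair and 0.60 in the WT pair, Gzmb, granzyme B, by 0.75 and 0.70, and Fscn1, an actin-bundling protein, by 1.18 and 2.30. H2-Aa and H2-Ea, chains of MHC class II, differed by 0.55 and 0.75 and by 0.68 and 1.39. Gzmb is on the CD8 and NK cell list, which had a median of -0.14 in the he pair and -0.07 in the WT pair, with 3 of 9 higher in each. The B cell list had -0.01 and -0.08. The Treg marker list had a median of 0.12 in the he pair and 0.20 in the WT pair, and the macrophage and monocyte list 0.06 and -0.01. These are values of single arrays with no test, and the part of any cell type in them was not tested.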
